A study of Mus musculus with 3 samples.

Results

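Dapl1, Dtx1, Fam101b, Nsg2, Tspan32, Fam65b, Tespa1, Ms4a4c, Actn1 and Trib2 are 10 of the 28692 genes counted in TEa CD4 T cells of mice with heart transplants. They were chosen by their summed levels in these libraries, as transcripts among the lowest in the graft relative to the spleen or as markers of naive-like T cells. Their difference between the tissues is therefore a description with no test. TEa cells carry a transgenic T cell receptor for an allopeptide. They were transferred into C57BL/6 mice that were given BALB/c hearts and were sorted on day 7 from the heart allograft (WT heart allograft) and from the spleen (WT spleen). Each group is 1 droplet-based single-cell library, so no difference has a replicate check, and an effect of tissue cannot be told apart from one of library. A library of Ldha-/- TEa cells from the spleen was not analysed here.

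After filtering, 3986 graft cells with 42254366 unique molecular identifiers (UMIs, counted transcripts) and 6559 spleen cells with 56013165 UMIs remained, with a median of 8236 UMIs per graft cell and 7988 per spleen cell. Levels are given as counts per 1e6 UMIs of a library or class (CPM). The T cell markers summed to 12461 CPM in graft cells against 12296.5 CPM in spleen cells. B cell markers stood at 44.3 CPM in graft against 178 CPM in spleen cells. After 88 graft and 24 spleen barcodes rich in monocyte or macrophage markers had been taken out, those markers stood at 326 CPM in graft against 204 CPM in spleen cells. Their part in the results was not tested. The libraries shared 6 cell barcodes. Intervals are 95% counting intervals and cover counting error only.

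Naive and recirculating T cells pass between blood and lymphoid organs with the homing receptor Ccr7 and the egress receptor S1pr1, under the control of a programme that depends on transcription factors such as Klf2 and Lef1. Activated effector T cells lose much of this set and enter tissue. The genes described here have no common function. Dapl1 is a small protein related to the death-associated protein Dap. Dtx1 (Deltex) is a ubiquitin ligase linked to the Notch pathway, Tespa1 takes part in T cell receptor signalling in thymocytes, and Trib2 is a pseudokinase. Fam101b (refilin B, a filamin-binding protein), Fam65b (an inhibitor of RhoA) and Actn1 (an actin crosslinker) act on the cytoskeleton. Tspan32 is a tetraspanin, Ms4a4c belongs to the MS4A family of membrane proteins, and Nsg2 is known from vesicle traffic in neurons.

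The sequences before the starts of Dapl1 and Dtx1 are shown because these genes had the lowest graft levels relative to the spleen. Each is the 250 bases before the RefSeq start (GRCm38.p6), 5′ to 3′ on the strand of the gene, with motif matches in capitals. The motifs, searched on both strands, were CTTTGA (TCF/LEF), CACCC (KLF), CAGNTG (E-box) and TGTTTAC (FOXO). The Dapl1 window is chr2:59484403-59484652 (plus strand) and the Dtx1 window chr5:120711670-120711919 (minus strand). The Dtx1 window lies inside the gene as GENCODE M21 gives it (120680202 to 120711927), where the start differs from that of RefSeq.
Dapl1: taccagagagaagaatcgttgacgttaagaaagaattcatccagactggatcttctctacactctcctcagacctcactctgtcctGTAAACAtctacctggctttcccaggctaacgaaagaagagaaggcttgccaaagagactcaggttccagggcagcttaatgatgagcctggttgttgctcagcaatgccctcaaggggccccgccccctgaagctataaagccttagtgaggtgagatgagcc
Dtx1: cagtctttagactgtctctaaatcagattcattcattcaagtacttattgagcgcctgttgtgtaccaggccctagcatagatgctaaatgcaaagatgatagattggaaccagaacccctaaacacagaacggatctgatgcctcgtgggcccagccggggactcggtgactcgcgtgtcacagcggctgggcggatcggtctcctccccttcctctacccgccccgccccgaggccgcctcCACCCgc

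RefSeq windows were found for 9 of the 10 genes, 12 windows in all. Of these, 1 held the FOXO letters, that of Dapl1, on the strand opposite to the gene and beginning 164 bases before the start. The same letters stood in 3.17% of 32536 mouse promoter windows of this length. The KLF letters, seen in the Dtx1 window, stood in 7 of the 12 windows, from 6 members, and in 52.1% of all windows. The E-box letters stood in 5 of the 12 windows, from 3 members, and in 44.8% of all windows. The TCF/LEF letters stood in 1 of the 12 windows and in 13.9% of all windows. A match describes letters and not a bound site.

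Dapl1 and Dtx1 were nearly absent from graft T cells. Dapl1 (chromosome 2, 59484653 to 59505020, plus strand) had 39 UMIs in graft cells and 12487 in spleen cells. Its level was 0.923 CPM (0.656 to 1.26) in graft cells against 223 CPM (219 to 227) in spleen cells. The ratio was -6.86 on the log2(CPM + 1) scale, which understates differences of low genes. Dtx1 (chromosome 5, 120680202 to 120711927, minus strand) had 17 UMIs in graft cells and 4775 in spleen cells. Its level was 0.402 CPM (0.234 to 0.644) in graft cells against 85.2 CPM (82.8 to 87.7) in spleen cells, a log2 ratio of -5.94. A count of 0 would have allowed 0.0710 CPM in graft cells, so both genes were detected there at very low levels.

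Of the cytoskeletal genes, Fam101b (chromosome 11, 76019194 to 76027782, minus strand) stood at 9.18 CPM in graft cells against 142 CPM in spleen cells (log2 ratio -3.82). Fam65b (chromosome 13, 24582189 to 24733816, plus strand) stood at 25.2 CPM in graft cells against 203 CPM in spleen cells (-2.96). Actn1 (chromosome 12, 80167547 to 80260371, minus strand) stood at 28.1 CPM in graft cells against 129 CPM in spleen cells (-2.17), and 19.4% of graft cells against 57.7% of spleen cells held a UMI of it. These genes were thus reduced in the graft to different degrees, with Actn1 the best retained.

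Among the membrane and signalling genes, Tspan32 (chromosome 7, 143005046 to 143019644, plus strand) had the most UMIs of the 10 in both libraries, at 29.3 CPM in graft cells against 303 CPM in spleen cells (log2 ratio -3.33). Nsg2 (chromosome 11, 32000463 to 32059202, plus strand) stood at 7.10 CPM in graft cells against 94.2 CPM in spleen cells (-3.56). Tespa1 (chromosome 10, 130322870 to 130364111, plus strand) stood at 6.32 CPM in graft cells against 54.3 CPM in spleen cells (-2.92). Trib2 (chromosome 12, 15791727 to 15816922, minus strand) had the smallest difference of the 10, at 16.8 CPM in graft cells against 72.0 CPM in spleen cells (-2.04).

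Ms4a4c (chromosome 19, 11404770 to 11427246, plus strand) stood at 7.95 CPM in graft cells against 76.1 CPM in spleen cells, a log2 ratio of -3.11. The graft barcodes taken out for their monocyte or macrophage markers held it at 416 CPM and the corresponding spleen barcodes at 42.1 CPM. With these barcodes kept, the ratio was -1.27. Close relatives had more UMIs, Ms4a4b with 1091 against 2216 CPM and Ms4a6b with 722 against 1131 CPM in graft against spleen cells. How reads shared among them were counted is not given in the sources used here, so the level of Ms4a4c is uncertain.

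**Figure D1:**
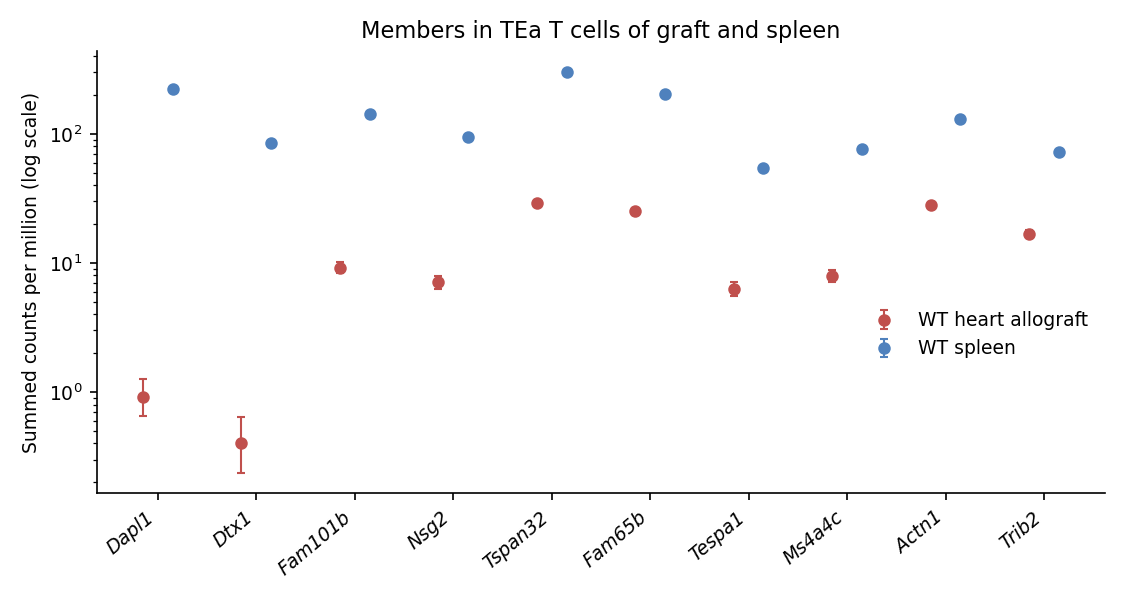
Level of each member in WT heart allograft cells (red) and WT spleen cells (blue) as summed CPM on a log axis, with 1 library per group and 95% counting intervals as bars. Every member is lower in the graft, from 16.8 against 72.0 CPM for Trib2 to 0.923 against 223 CPM for Dapl1, graft against spleen.

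All 10 members passed the floor of 50 CPM in either library and were at least 2-fold lower in the graft. The same held for 131 of 2703 genes (4.85%), and nothing is read from the members' count, because this ratio chose them. Counted from the lowest ratio, the ranks were 1 for Dapl1, 2 for Dtx1, 6 for Fam101b, 7 for Nsg2, 9 for Tspan32, 10 for Ms4a4c, 11 for Fam65b, 12 for Tespa1, 22 for Actn1 and 27 for Trib2.

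Relatives of these genes were mixed. Of 27 listed relatives 8 passed the floor, 2 of which were at least 2-fold lower and 0 at least 2-fold higher in the graft. Those lower were Ms4a4b, given above, and the tetraspanin Cd9 (32.9 against 134 CPM, graft against spleen). Other relatives, in the same order of tissues, were Dap (124 against 87.7 CPM), Cd82 (178 against 92.9 CPM), Cd53 (403 against 383 CPM) and Actn4 (81.6 against 60.2 CPM). The other Deltex genes were low, with Dtx2 at 12.2 against 9.55 CPM, Dtx3 at 18.8 against 19.5 CPM, Dtx3l at 41.0 against 44.6 CPM and Dtx4 at 6.60 against 1.05 CPM. Of the Notch pathway, 2 of 16 listed genes passed the floor, Notch1 (49.3 against 55.8 CPM) and the nuclear effector Rbpj (185 against 31.1 CPM). Rbpj was thus higher in the graft, where Dtx1 was nearly absent.

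Within the spleen, Dapl1 was distributed unlike the other members. A Dapl1 UMI was found in 25.3% of spleen cells, 1658 of 6559, although a spread in proportion to depth would place one in 82.8%. Cells that held Dapl1 had 7.53 UMIs of it on average and up to 43. Of all spleen cells, 1299 had at least 3 UMIs (19.8%, 18.8 to 20.8%), 359 had 1 or 2, and 4901 had none. The variance of its UMIs per cell was 10.5 times the mean.

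Fam65b, with a similar number of UMIs per cell, was found in 75.5% of spleen cells where an even spread gives 80.0%, and Tspan32 in 86.4% where it gives 90.4%. The observed share divided by the even one was 0.305 for Dapl1, and for the 9 other members it lay between 0.680 (Ms4a4c) and 0.955 (Tspan32). Among 2162 spleen genes of at least 50 CPM, Dapl1 ranked 10 from the lowest. The 9 genes below it were Hist1h1b, Hist1h2ap and Stmn1, known from cycling cells, and Ccl5, Gzmb, S100a4, Ly6c2, Plac8 and Nkg7, most of them known from effector cells.

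The share of cells with Dapl1 hardly depended on depth. With spleen cells ordered by depth and cut into 4 equal groups, Dapl1 was found in 23.9% of the shallowest (median 6368 UMIs), then in 26.6% and 25.4%, and in 25.3% of the deepest (median 10422 UMIs). From shallow to deep, the share for Dtx1 was 35%, 44.6%, 41.8% and 50.2%. For Tspan32 it was 80.1%, 86.8%, 87.9% and 90.8%. The deepest group thus had more cells with Dtx1 and Tspan32 than the shallowest, while for Dapl1 these groups' intervals overlapped.

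**Figure D2:**
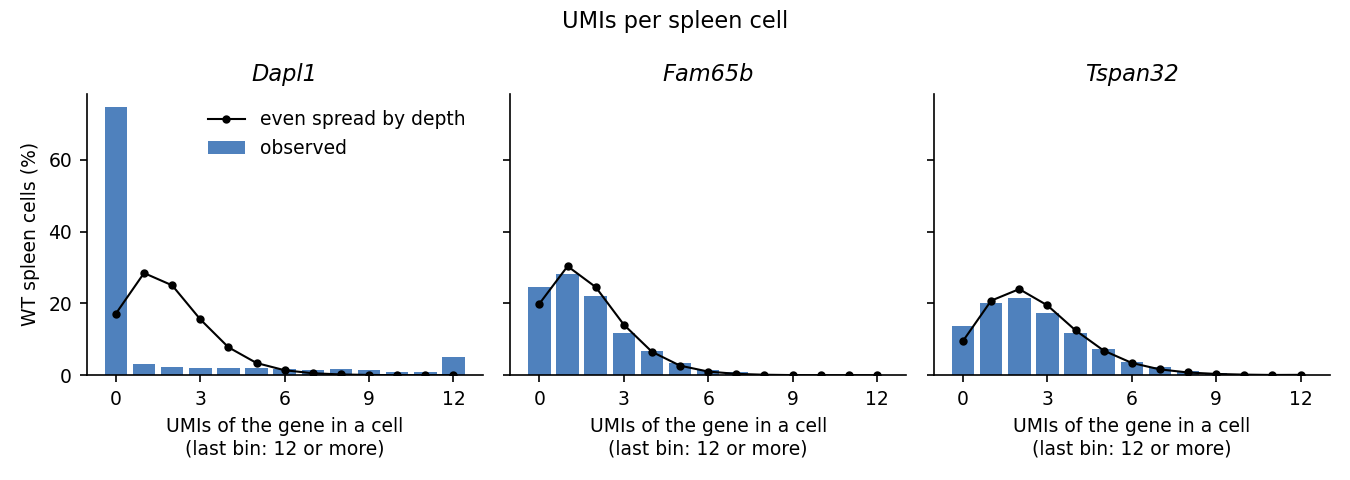
Share of WT spleen cells (percent, vertical axis) by number of UMIs of Dapl1, Fam65b and Tspan32 in the cell (horizontal axis, last bin 12 or more). Bars are observed and black points are what a spread in proportion to depth gives; for Dapl1 74.7% of cells have 0 UMIs where that spread gives 17.2%, and 5.17% have 12 or more.

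Spleen cells with Dapl1 differed from those without it mainly in lower effector transcripts. Cells with at least 3 Dapl1 UMIs (1299) were set against cells with none (4901), a division chosen after seeing the data. Of 2377 genes, 0 had a level 2-fold or more above (0%) and 20 a level 2-fold or more below (0.841%) that of cells without Dapl1. Of the Th1 list 4 of 7 genes past the floor were 2-fold lower, with a median log2 ratio of -1.62 against -0.06 over all genes. In cells with Dapl1 against cells without it, the protease Gzmb stood at 4.26 against 69.9 CPM and the chemokine Ccl5 at 46.5 against 436 CPM. In the same order, S100a4 stood at 108 against 672 CPM and the cycling gene Mki67 at 14.4 against 46.7 CPM.

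The homing receptor Ccr7 was moderately higher in cells with Dapl1, at 140.2 against 99.3 CPM in cells with Dapl1 against cells without it. In the same order, the transcription factors Lef1 (163 against 147 CPM), Tcf7 (459.7 against 433 CPM) and Klf2 (904 against 883 CPM) differed less, and 0 of 14 naive list genes past the floor were 2-fold higher. Of the other members, Ms4a4c had the largest ratio, with 101 against 67.3 CPM, and the next was Nsg2 with 107 against 90.5 CPM.

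Within clusters, Ms4a4c was higher and Ikzf2 lower in cells with Dapl1 in several clusters, while many other genes went with Dapl1 in only some. In clusters 0 and 2, described below and chosen after seeing the data, 809 cells had at least 3 Dapl1 UMIs and 2082 had none. Of 2341 other genes, 0 were past 2-fold upwards and 0 downwards (0% each way). Nor was any gene past 2-fold in these clusters with at least 1 or at least 5 Dapl1 UMIs, or among cells with a UMI of a TEa receptor segment. In cells with Dapl1 against cells without it, the lowest ratios past the floor were those of the kinase Pim1 (37.7 against 60.6 CPM), S100a11 (179 against 282 CPM) and S100a6 (194 against 293 CPM). The highest were those of the cytokine receptor chain Il2rb (53.0 against 41.0 CPM), Ms4a4c (92.0 against 71.7 CPM) and the TGF-beta pathway inhibitor Smad7 (81.1 against 66.5 CPM). Fam101b (185 against 205 CPM) differed little. The transcription factor Ikzf2 (Helios), below the floor in these clusters, was lower in cells with Dapl1, with 20.8 against 39.8 CPM.

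In the Tfh-like cluster (260 cells with at least 3 Dapl1 UMIs and 1183 with none), 0 of 2330 genes were past 2-fold upwards (0%) and 1 downwards (0.0429%). That gene was Ikzf2, with 39.6 against 109 CPM in cells with Dapl1 against cells without it. In the Th1-like cluster (68 and 947 cells), 4 of 2544 genes were past 2-fold upwards (0.157%) and 17 downwards (0.668%). Its cells with Dapl1 had less of the effector genes Cxcr6 (21.6 against 131 CPM), Gzmb (40.4 against 185 CPM) and Ccl5 (512 against 1901 CPM) than its cells without it. They had more Nsg2 (104 against 44.8 CPM), Ccr7 (99.5 against 43.4 CPM), Mga (53.3 against 26.2 CPM) and Fam101b (134 against 67.9 CPM, short of 2-fold). Ikzf2 was lower in cells with Dapl1 in this cluster too, with 37.5 against 80.3 CPM. Ms4a4c was higher in cells with Dapl1 in the Tfh-like (109 against 74.1 CPM) and the Th1-like cluster (90.8 against 49.8 CPM).

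Of the receptor segments of the TEa line, the Trav14 family differed in share between the libraries and between spleen clusters. Over clusters of at least 100 cells, the Trav14 family made up 75.2 to 81.4% of Trav UMIs in the graft and 54.6 to 71.2% in the spleen. Within the spleen the share was 54.6% (51.7 to 57.5%) in cluster 2 and 55.4% (52.5 to 58.3%) in cluster 0, against 65.2% (61.9 to 68.4%) in the Th1-like and 70.7% (65.1 to 75.9%) in the cycling cluster. The intervals of clusters 0 and 2 thus lay below those of the Th1-like and cycling clusters. For Trbv19, the other segment, the intervals of these clusters overlapped. Its share of Trbv UMIs was 73.7% (69.0 to 78.0%) in cluster 2 and 79.0% (74.7 to 82.8%) in cluster 0. It was 78.8% (73.9 to 83.2%) in the Th1-like and 85.9% (76.2 to 92.7%) in the cycling cluster. With only cells that held a UMI of Trbv19 or the Trav14 family, the log2 ratios, graft over spleen, were -6.70 for Dapl1 and -1.93 for Trib2. The members were chosen on this ratio in these libraries, so nothing is read from these values about cells outside the TEa line. Trbv19 made up 76.4% (70.1 to 82.0%) of Trbv UMIs in cells of clusters 0 and 2 with Dapl1 and 77.4% (73.7 to 80.9%) in those without it, and the intervals overlapped. The Trav14 family made up 61.9% (57.8 to 65.9%) of Trav UMIs in cells with Dapl1 and 53.4% (50.9 to 55.9%) in those without it, and these intervals did not overlap. Over all spleen cells the Trav14 shares were 60.6% (57.5 to 63.7%) with Dapl1 and 58.6% (57.0 to 60.1%) without it, with overlapping intervals.

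Clusters were formed in each library without the 10 genes. Spleen cluster 0 (1760 cells) was led, beside members, by Socs3, Sit1, Mfng and S1pr1, and cluster 2 (1325 cells) by Ccr7 and Pik3ip1. Cluster 1 (1541 cells) was Tfh-like, with raised Pdcd1, Tox2, Il21, Izumo1r, Bcl6 and Cd200. Cluster 3 (1035 cells) was Th1-like, led by Ccl5 and Gzma. Cluster 4 (301 cells) was led by the immediate early genes Nr4a3 and Egr2, with 5 Tfh markers raised, cluster 5 (228 cells) by sterol synthesis genes, cluster 6 (212 cells) by cycling genes and cluster 7 (121 cells) by interferon response genes. The cycling cluster 6 also had raised Th1 markers, Il18rap, Nkg7, Ifng, Gzmb, Cxcr6, Tbx21, Id2 and Ly6c2. Cluster 8 (36 cells) was naive-like, with raised Igfbp4, Lef1, Il7r, Satb1, Txk and Ccr7, and also raised Foxp3. Clusters 0, 2, 4 and 5 were left unnamed.

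The 10 genes together were highest in clusters 2 and 0, at 1770.5 and 1686 CPM, and lowest in the Th1-like and cycling clusters, at 935 and 594 CPM. The Tfh-like cluster stood at 1219 CPM. Clusters 0 and 2 made up 26.8% and 20.2% of spleen cells and gave 29.4% and 25.3% of the members' UMIs, so the transcripts were spread well beyond them.

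Dapl1 stood at 341 CPM in cluster 0 (331 to 351), 318 CPM in cluster 2 (308 to 329), 250.3 CPM in cluster 5 (228 to 274), 241 CPM in cluster 4 (223 to 260.3) and 211 CPM in cluster 7 (184 to 241). It stood at 160.4 CPM in the Tfh-like cluster (154 to 167), 70.3 CPM in the Th1-like cluster (65.0 to 76.0) and 44.5 CPM in the cycling cluster (37.5 to 52.4). The naive-like cluster had the highest level, 464 CPM in few cells (380.2 to 562). Of its 10 Trav UMIs, the Trav14 family made up 30% (6.67 to 65.2%). Whether its cells are TEa cells was not tested. The counting intervals of clusters 5, 4 and 7 overlapped each other, while those of the Tfh-like, Th1-like and cycling clusters lay apart from each other and from the rest. Over all spleen cells the variance of Dapl1 UMIs was 10.5 times the mean. These intervals thus understate the spread among cells, and no order of close clusters is read from them. At least 3 Dapl1 UMIs were found in 27.0% of cells of cluster 2, 25.6% of cluster 0, 16.9% of the Tfh-like, 6.57% of the Th1-like and 4.72% of the cycling cluster. Where a cell held Dapl1, the median was 6 UMIs in the Th1-like cluster and 7 in cluster 0. The clusters thus differed more in how many cells held Dapl1 than in how much such a cell held.

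The other members had patterns of their own. Fam101b was high in cluster 2 (203 CPM) and low in the cycling cluster (26.9 CPM), and so was Actn1 (192 and 40.5 CPM). Fam65b lay between 134 and 263 CPM in the clusters of at least 50 cells and stood at 221 CPM in the Th1-like cluster. Dtx1 was highest in cluster 5 (129.5 CPM, 114 to 147) and cluster 0 (116 CPM). Tespa1 was highest in cluster 4 (93.1 CPM). Ms4a4c was highest in the interferon cluster (307 CPM, 275 to 343), ahead of cluster 2 (91.4 CPM), and its highest cluster stood at 134 CPM when clusters were formed from 30 neighbours.

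**Figure D3:**
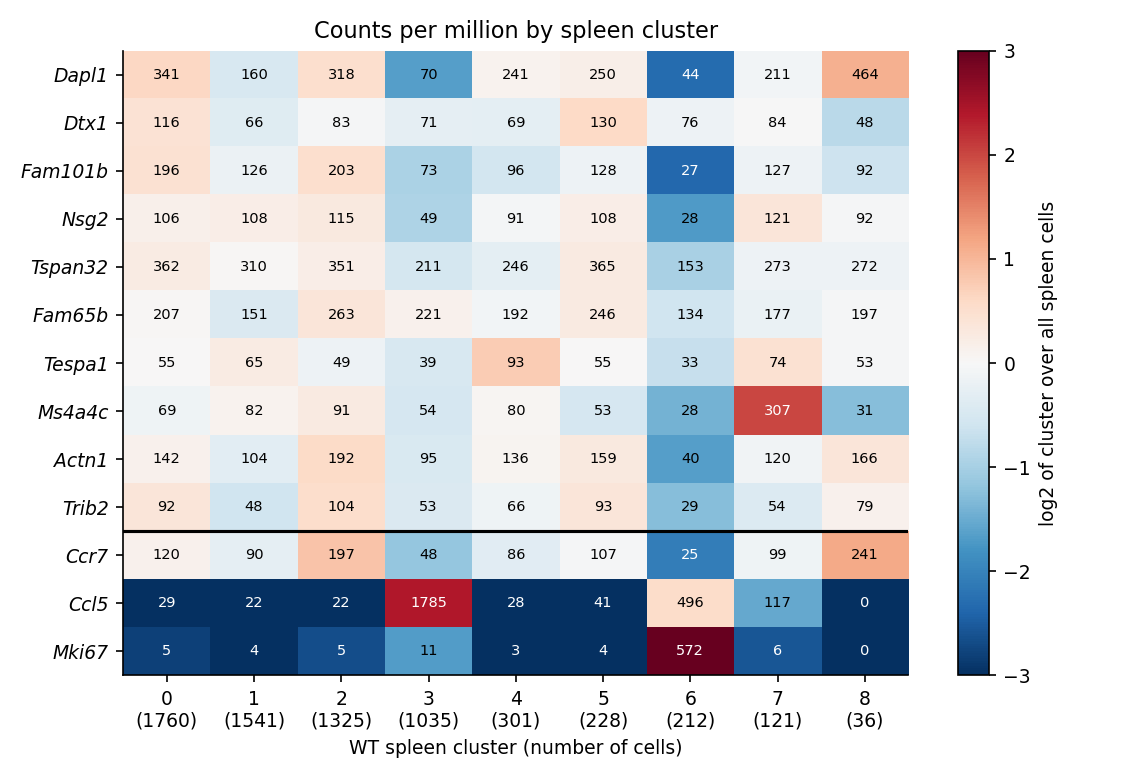
CPM of each member and of marker genes (rows) in the 9 WT spleen clusters (columns); numbers are CPM and colour is the log2 of the cluster over all spleen cells, limited to 3 either way. Dapl1 stands at 341 and 318 CPM in clusters 0 and 2 and at 70.3 and 44.5 CPM in clusters 3 and 6, while Ms4a4c reaches 307 CPM in cluster 7.

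Spleen cells with one member held another only slightly more often than cells without it. With each cell thinned to 1000 UMIs, 3 of 3986 graft cells (0.0753%) and 734 of 6559 spleen cells (11.2%) held at least 3 of the 10. None was found in 87.7% of graft cells and 28.4% of spleen cells. Over 90 ordered pairs in spleen cells, the share with one gene among cells with the other was 1.04 times (median) that among cells without it, between 0.714 and 1.42. The intervals lay apart in 6 pairs, all with the higher share among cells with the other gene. Ms4a4c was found in 8.74% of cells with Dapl1 and 6.16% of cells without it. Nsg2 was found in 11.8% of cells with Fam101b and 8.51% of cells without it.

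By level, all 10 were higher in spleen cells with at least 3 other members than in cells with none of the others. In that order, Dapl1 stood at 296 against 205 CPM, Fam101b at 180.3 against 116 CPM, Trib2 at 92.7 against 59.7 CPM and Tspan32 at 357 against 275 CPM. Tespa1 (60.1 against 54.8 CPM) and Fam65b (209 against 193 CPM) differed least in ratio, and for both the intervals overlapped. By share of thinned cells with the gene, Fam65b (16.9 against 18.1%), Tespa1 (4.99 against 5.62%) and Ms4a4c (6.26 against 6.33%) were slightly lower. The other members were higher by share too. No share over all genes was computed for this division, so nothing is read from the count of members.

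The 734 spleen cells with at least 3 members were then set against the 1864 with none, leaving the members out. They differed chiefly in lower Th1 and cycling transcripts. Of 2449 genes, 0 were past 2-fold upwards (0%) and 40 downwards (1.63%). Of the Th1 list 5 of 8 genes past the floor were 2-fold lower (median -2.47, against -0.03 over all genes), as were 5 of 5 cycling genes (median -3.98). Another random thinning gave medians of -2.00 for Th1 and -2.78 for cycling genes, and cells with at least 2 members gave -1.45 and -2.72. Of the naive list 14 of 16 genes passed the floor, 12 were higher and 0 were 2-fold higher (median 0.38). The count of naive genes 2-fold higher was 1 with another random thinning and 3 with cells thinned to 3000 UMIs.

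Among the 10 highest ratios in cells with at least 3 members against cells with none were those of Ccr7 (139.5 against 87.2 CPM), Zbtb20 (56.0 against 35.0 CPM), Izumo4 (51.3 against 32.5 CPM), Slfn5 (73.3 against 47.8 CPM), the kinase Txk (73.8 against 48.4 CPM), Pik3ip1 (54.3 against 35.8 CPM), Dennd2d (123 against 84.1 CPM), Cd55 (58.9 against 40.4 CPM) and Kmt2c (55.0 against 38.6 CPM). In the same order of classes, the naive regulators Lef1 (179.8 against 132 CPM), Tcf7 (507 against 386 CPM), Id3 (453 against 351 CPM) and Klf2 (941 against 813 CPM) were also somewhat higher. Il7r (137 against 147 CPM) and the survival gene Bcl2 (39.6 against 54.8 CPM) were the naive list genes with the opposite sign.

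The 10 lowest ratios, again in cells with at least 3 members against cells with none, included the cycling genes Hist1h1b (1.17 against 122 CPM), Ube2c (0.671 against 83.9 CPM), Hist1h2ap (3.52 against 209 CPM), Birc5 (1.34 against 83.5 CPM), Hist1h2ae (3.35 against 79.0 CPM), Stmn1 (12.4 against 211 CPM) and Mki67 (4.53 against 78.3 CPM). The others were Lgals3 (2.35 against 88.2 CPM), Gzmb (5.37 against 98.6 CPM) and Ifitm3 (4.36 against 62.7 CPM), and Ccl5 stood at 54.2 against 536 CPM. Cycling cells made up 0.136% of cells with at least 3 members and 5.74% of cells with none. Without cycling cells the log2 ratios of Hist1h2ap and Hist1h2ae were 0.041 and 0.077, and 4 of 7 Th1 genes past the floor were 2-fold lower (median -2.18).

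The remaining lists hardly separated these classes. Of 6 Tfh, 5 activation, 8 glycolysis and 3 interferon genes past the floor, 0 were 2-fold apart. Their medians were -0.03, -0.03, -0.22 and -0.14. With cells thinned to 3000 UMIs, 5 of 6 Tfh genes past the floor were higher and 0 were 2-fold apart. Their median was then 0.34, against -0.09 over all genes. In cells with at least 3 members against cells with none, the follicle homing receptor Cxcr5, below the floor, stood at 34.2 against 33.0 CPM, and the glycolytic enzyme Ldha at 447 against 524 CPM. Trbv19 made up 78.2% (71.6 to 83.9%) of Trbv UMIs in cells with at least 3 members and 79.9% (76.2 to 83.2%) in cells with none.

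**Figure D4:**
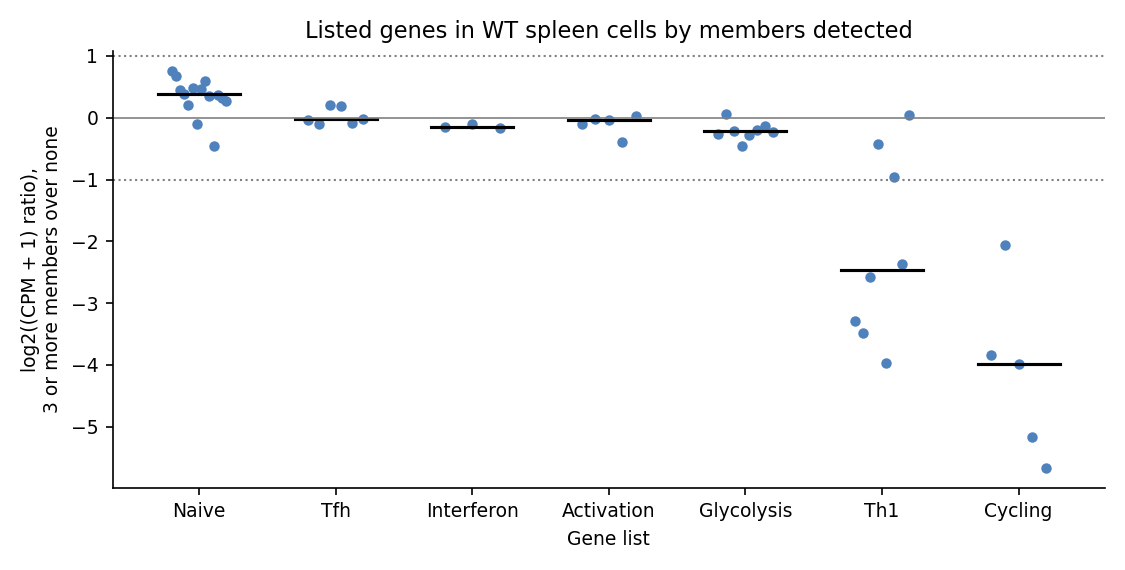
Log2 ratio of (CPM + 1) in WT spleen cells with at least 3 members over cells with none (vertical axis) for listed genes past the floor of 50 CPM, by gene list (horizontal axis); each point is a gene and black lines are medians. The median of naive genes is slightly above 0 (0.38), while those of Th1 (-2.47) and cycling genes (-3.98) are far below.

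In the graft, the sum of these genes was highest among cells rich in Ccr7. Heart cluster 1 (861 cells, 21.6% of graft cells) was led by Ccr7 and Tnfsf8, with Lef1, Klf2, Tcf7 and S1pr1 and also the Tfh markers Tox2, Cxcr5 and Bcl6 raised. It held 41.8% of the members' UMIs, at a sum of 298 CPM against 72.8 to 144 CPM in the other graft clusters. Clusters formed from 30 neighbours divided this more, the highest of them holding 25.2% of the members' UMIs at 381 CPM and the next 16.4% at 218 CPM. Of 39 Dapl1 UMIs in the graft, 38 lay in 10 of the cells of heart cluster 1, 7 of which had at least 3. Of the 11 graft cells with Dapl1, 0 shared a barcode with a spleen cell. The 17 Dtx1 UMIs lay in 15 cells of 7 clusters. Ms4a4c was not raised in heart cluster 1, at 6.82 CPM there against 7.95 CPM over all graft cells.

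Heart cluster 1 was set against spleen clusters 0 and 2 (3085 cells), a pairing chosen after seeing the data. In that order, Ccr7 stood at 243 against 155 CPM and Satb1 at 313 against 166 CPM. Il7r stood at 283 against 181 CPM and S1pr1 at 192 against 219.8 CPM. Lef1 (84.1 against 178 CPM), Tcf7 (215 against 503 CPM), Slamf6 (220 against 498 CPM) and Txk (30.9 against 73.1 CPM) were lower in the heart cluster. Bach2 (35.5 against 28.5 CPM) was higher there. Klf2 (155 against 1056 CPM) and Id3 (11.5 against 371 CPM) were far lower in the heart cluster. Dapl1 stood at 4.89 CPM (3.46 to 6.71) in heart cluster 1 against 331 CPM (323 to 338) in the spleen clusters, a log2 ratio of -5.82. Dtx1 stood at 0.643 against 101 CPM (-5.96) and Ms4a4c at 6.82 against 79.4 CPM (-3.36). Actn1 (81.6 against 164.5 CPM) and Trib2 (37.7 against 97.7 CPM, -1.35) were the members with the smallest differences. Nothing is read from the members' differences here, since the members were chosen as low in the graft against the spleen or as naive-like markers.

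**Figure D5:**
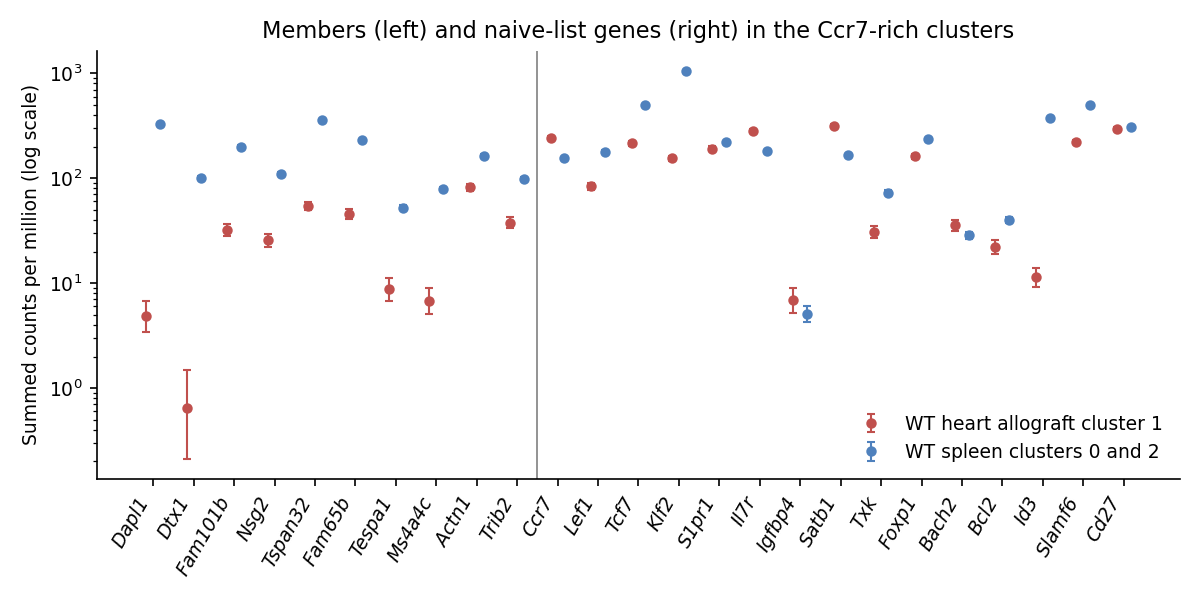
CPM on a log axis of the 10 members and 15 naive list genes in WT heart allograft cluster 1 (red, 861 cells) and WT spleen clusters 0 and 2 (blue, 3085 cells), with 95% counting intervals. Ccr7, Il7r and Satb1 are higher in the heart cluster, while Dapl1 (4.89 against 331 CPM) and Dtx1 (0.643 against 101 CPM) are far lower.

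Free RNA was read from barcodes with 1 to 50 UMIs. In the spleen these held 207 CPM of Dapl1 (191 to 225), close to the level of the cells. Dapl1 was found in 0 of 88 removed graft barcodes (median 24632.5 UMIs), where 3 counts of the total allow a share of barcodes with a UMI of up to 3.41%. It was found in 3 of 24 removed spleen barcodes (median 9045 UMIs). With barcodes thinned to 1000 UMIs it was found in 4.17% of these and in 13.4% of spleen cells. The part of free RNA in the low spleen levels, such as cells with 1 or 2 Dapl1 UMIs, was not tested.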

How the data were processed

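The authors deposited raw UMI counts per gene and barcode, made with a 3' droplet kit, per the labels' protocols, whose text speaks of nuclei. Per the file headers, Cell Ranger 3.0.2 wrote the WT matrices. Cell Ranger 7.0.0, Seurat 4.0.0 and mm10 are named in the submitters' processing notes. Whether intronic reads were counted is not given in the sources used here.

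Cells needed 1000 or more UMIs, 500 or more genes and no more than 10% mitochondrial UMIs. After joint clustering in scanpy 1.11.5, 1 cluster with at least 5 raised monocyte or macrophage markers was taken out. No doublet caller was run. Each library was clustered alone without the members, from 2000 variable genes, 30 components and 15 neighbours (leidenalg 0.10.2, resolution 0.6). Counts were summed over cells and scaled to CPM, with exact Poisson intervals for levels and exact Clopper-Pearson intervals for shares. Log2 ratios used a pseudocount of 1 CPM, and genes of at least 50 CPM in either class were counted past 2-fold. Cells are not replicates, so no p-value is given. Beside the members, the text names the 10 highest and 10 lowest ratios between spleen cells with at least 3 members and with none, set genes and listed genes, while genes named from the Dapl1 division and the clusters were picked after their values were seen. A gene that this rule names is not reported here. The members and lists were chosen with earlier results of these data known. The comparison code was tested on simulated data. Alternatives varied the pseudocount, totals, thinning, cell filters and clustering. The coordinates printed for genes were read from the GENCODE M21 annotation, whose build is GRCm38.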

Additional observations from a re-analysis of the deposited data

Results flagged for a closer look

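Graft barcodes with 1 to 50 UMIs, which no comparison uses, held 6 members at levels whose intervals lay wholly above those of graft cells. Dapl1 stood at 12.5 CPM in these barcodes (7.64 to 19.3, from 20 UMIs) against 0.923 CPM in graft cells. In the same order, Dtx1 stood at 5.63 against 0.402 CPM, Ms4a4c at 35.7 against 7.95 CPM, Nsg2 at 14.4 against 7.10 CPM, Tspan32 at 45.0 against 29.3 CPM and Fam65b at 42.5 against 25.2 CPM. What these barcodes contain was not tested.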

How the results depend on the processing

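All 10 members were at least 2-fold lower in the graft under each alternative run, with log2 ratios between -7.77 and -6.70 for Dapl1 and between -2.34 and -1.93 for Trib2. With a floor of 10 CPM, 582 of 6946 genes were (8.38%). The members were chosen on this ratio, so their count under the alternatives is a description only. The share of spleen cells with at least 3 members was 57.0% with cells thinned to 3000 UMIs and 91.6% with no thinning, since deeper cells show more members, and that with at least 2 members was 33.7%. Of the naive list, 3 genes were 2-fold higher with cells thinned to 3000 UMIs and 1 with another thinning seed. Without cycling cells the log2 ratios of Hist1h2ap and Hist1h2ae reversed to 0.041 and 0.077. Except where said, the cause was not tested. No paired analysis was possible because each group has 1 library, and no replicate could be left out. Doublets were not called and can remain.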
